A study of Cricetiscus sungorus with 24 samples.

Results

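The small nucleolar RNAs and other noncoding RNAs of the hamster kidney were followed across photoperiod and prolactin (PRL) treatment. Members were taken by name: the snoRNAs (Snora and Snord genes), the Cajal body RNAs (Scarna), the numbered snoRNA host genes (Snhg), the spliceosomal RNAs (Rnu), the Y RNAs (Rny), the 7S RNAs (Rn7s), and Rmrp, Rpph1, Bc1, Malat1, Neat1, Meg3, H19, Gas5, Terc and Gm32262. The rule found 45 of the 9681 genes in the table of experiment 1 and 60 of the 15842 genes in that of experiment 2. Across both tables there were 64 members, of which 41 were in both, 4 only in the first and 19 only in the second. Gas5 was in neither table. Where a gene had several transcript rows, the row with the highest total was used, so the row of each gene was chosen by its measured read total, while the genes were chosen by name. The names themselves were chosen with earlier results of these data known. Gm32262, an uncharacterized gene model, was added after its values had been seen, and its levels are given without a test.

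snoRNAs guide the cutting and chemical modification of ribosomal RNA in the nucleolus. The C/D box class directs methylation, the H/ACA box class directs pseudouridylation, and a few members of each class, among them U3 and U17, take part in cutting the ribosomal RNA precursor. The spliceosomal RNAs U1 and U2 take part in recognizing introns, and 7SL RNA is the scaffold of the signal recognition particle. 7SK RNA holds back a transcription elongation factor, and the RNAs of RNase P and RNase MRP trim tRNA and ribosomal RNA precursors. In the kidney, as in other tissues, such RNAs serve the making of ribosomes and the splicing of messenger RNA in every cell type.

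The data were nanopore cDNA reads from whole kidney tissue of Djungarian (Siberian) hamsters, Phodopus sungorus. In experiment 1, adult males were kept in a long photoperiod with 16 h of light (LP, n = 4) or moved to a short photoperiod with 8 h of light for 12 weeks (SP12wk, n = 4) or 28 weeks (SP28wk, n = 4), to ask how the kidney changes over a simulated season. In experiment 2, adult females had all spent 8 weeks in short photoperiod and then received daily intraperitoneal injections for 3 days, either of the dimethyl sulfoxide and saline vehicle (SAL, n = 6) or of 18 µg of a preparation of PRL in that vehicle (PRL, n = 6), to ask whether the hormone alone alters the kidney. The labels number the samples within a group and name no strain or genotype. The p-values of the fits are set against a spread between these samples that is estimated with help from all genes tested. Sex, photoperiod history and injection all differed between the experiments, so no value was compared across them.

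Library totals, with 1 row counted per gene, were 15687 to 57585 reads in experiment 1 and 174053 to 756523 in experiment 2. A gene at 0 reads could therefore still stand at up to 52.1 to 191 reads per 1000000 reads of the library (CPM) in the first experiment and 3.97 to 17.2 CPM in the second, by the limit of 3 counts; such limits cover counting error only. Of 13 kidney markers, 9 were in the first table and 11 in the second, while Cubn and Kap were in neither and Aqp2 and Nphs1 were missing from the first. Of 7 adrenal markers, 1 was in the first table and 3 in the second, with Star, Cyp11b1, Cyp11b2 and Mc2r in neither, and they summed to at most 28.3 CPM in experiment 1 and 23.0 CPM in experiment 2. The hemoglobin and erythroid markers, 5 of 6 in each table, summed to 14205 to 44112 CPM in experiment 1 and 8908 to 19490 CPM in experiment 2. In whole tissue, fewer cells of a type and less RNA per cell cannot be told apart.

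Few members carried most of the reads. In experiment 1, 12 members had at least 100 reads over the 12 libraries, 23 had fewer than 10, and 12 had at most 1. In experiment 2 these numbers were 17, 28 and 11. Reads were found in all 12 libraries for 15 members of experiment 1 and 23 of experiment 2. Shares of the library total were taken for all members together, with Gm32262, counting each family of copies once. They were 0.839% ± 0.267 in LP, 0.523% ± 0.262 in SP12wk and 0.999% ± 0.105 in SP28wk (SD, n = 4 each). In experiment 2 they were 0.446% ± 0.507 in SAL and 0.404% ± 0.266 in PRL (SD, n = 6 each). The library totals themselves still count copies under each gene name. In experiment 2 much of this share and of its spread belonged to Bc1 and Gm32262, described last.

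Several members were copies of one another, and their reads could not be assigned to one gene. The U3 genes Snord3b1, Snord3b2, Snord3b3 and Snord3b4 differed by at most 1 read in any library of either experiment. The rows of Rn7s1 and Rn7s2, of Rnu1b1 and Rnu1b2, and of Snord14c and Snord14d were equal throughout. Snora73a had 81.3% of the reads of Snora73b in experiment 1 and 83.6% in experiment 2. With 1 row kept per family, the 45 members of experiment 1 made 35 families and the 60 of experiment 2 made 49. Other gene names shared these rows too: the row of Rnu1a1 was equal in every library to those of 6 other genes in both tables, and the row of Rnu2-10 to those of 5 others in the first table and 3 in the second. Snhg14, a long host transcript of the imprinted locus of Snrpn, had the same row as Snrpn and Snurf in experiment 2. A count of genes is therefore larger than the number of separate measurements, and Snora73a and Snora73b, for instance, are treated as 1 family.

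The C/D box snoRNAs were led by U3, which is needed for the first cuts in the ribosomal RNA precursor. In experiment 1 Snord3b4 had 608 reads, Snord3b1, Snord3b2 and Snord3b3 607 each, and Snord3a 400. The reads of Snord3b4 were 31, 48, 16 and 65 in LP, 62, 26, 22 and 30 in SP12wk, and 48, 52, 67 and 141 in SP28wk. On the CPM scale the group means were 1891 ± 864 (LP), 1536 ± 746 (SP12wk) and 2104 ± 259 (SP28wk), each with its SD over 4 libraries. The 3 groups overlapped, with LP and SP12wk each spanning nearly the whole range. Snord3a had 20, 39, 12 and 34 reads in LP, 50, 17, 17 and 18 in SP12wk, and 35, 31, 45 and 82 in SP28wk. It overlapped between groups in the same way.

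The remaining C/D box members had few reads. Snord118 (U8, which acts on the large subunit ribosomal RNA) had 12 reads in experiment 1. Snord65 had 6 reads, Snord45c 4 and Snord2 3, while Snord15b, Snord47, Snord67, Snord94 and Snord96a had 1 read each and Snord14c and Snord14d shared 1 read as 0.5 each. No level could be compared between groups at such counts. In experiment 2 Snord118 had 52 reads and Snord14c and Snord14d 7.5 each. Snord14e, Snord34 and Snord65 had 5 each, Snord2, Snord22 and Snord47 had 3 each, Snord15b had 2, and Snord55, Snord88a, Snord94 and Snord96a had 1 each.

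The H/ACA box class was almost wholly Snora73, known as U17, which takes part in the processing that yields the small subunit ribosomal RNA. In experiment 1 Snora73b had 418 reads and Snora73a 340, while Snora2b and Snora34 had 2 reads each and Snora5c and Snora81 1 each. In experiment 2 Snora73b had 853 reads and Snora73a 713. Snora78 followed with 20, Snora24 with 4.97, Snora2b and Snora3 with 4 each and Snora7a with 2, and Snora17, Snora21, Snora28, Snora34, Snora5c and Snora74a had 1 each.

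U17 gave the only members past the adjusted threshold in the 4 comparisons with edgeR. The reads of Snora73b were 19, 10, 7 and 39 in LP, 3, 6, 6 and 14 in SP12wk, and 13, 40, 112 and 149 in SP28wk. On the CPM scale the LP libraries stood at 894, 561, 388 and 1515, the SP12wk libraries at 123, 382, 301 and 396, and the SP28wk libraries at 514, 1659.6, 3199 and 2587. Every SP28wk library was above every SP12wk library, and 3 of the 4 SP28wk libraries were above all 4 LP libraries, although SP28wk replicate 1 lay within the LP range. Snora73a had 18, 8, 5 and 34 reads in LP, 2, 4, 5 and 12 in SP12wk, and 11, 31, 90 and 120 in SP28wk. It followed Snora73b in each library, with 0.67 to 0.95 Snora73a reads for each Snora73b read.

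**Figure D1:**
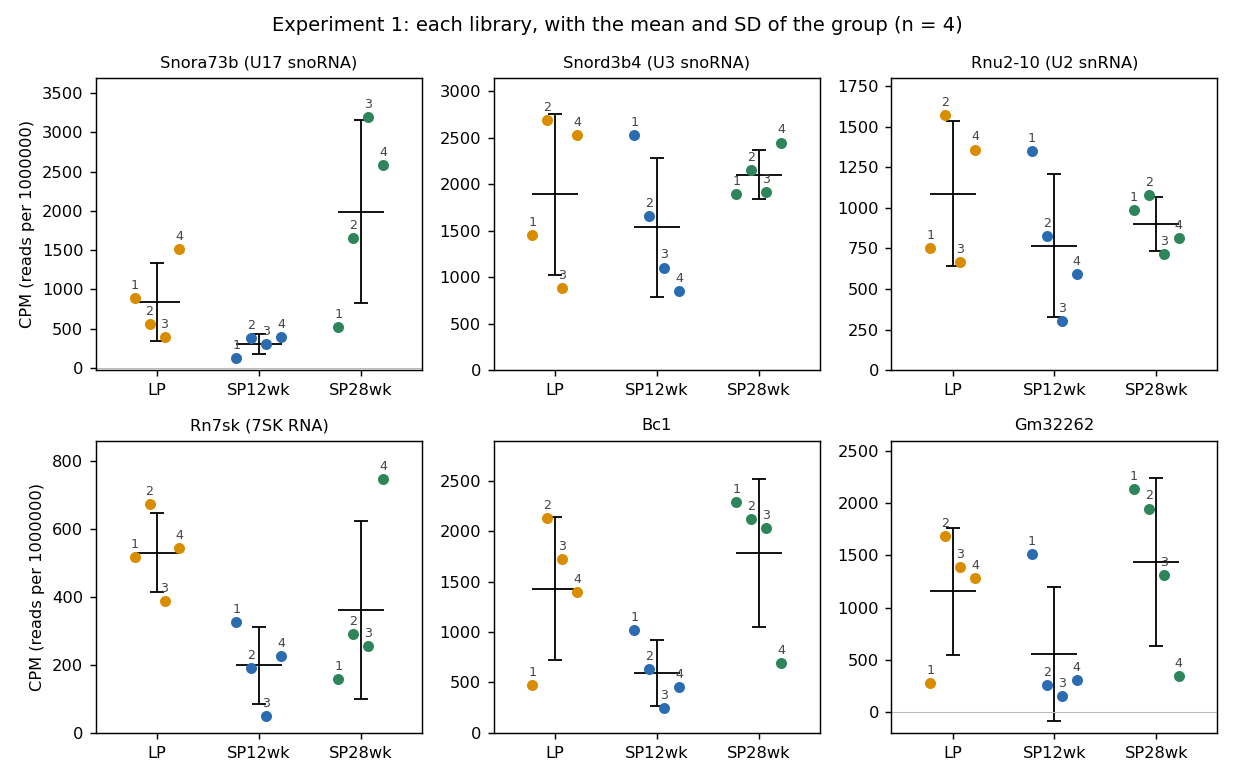
Level of 6 members in each library of experiment 1, in CPM (vertical axis, linear) for LP, SP12wk and SP28wk (horizontal axis). Points are libraries with their replicate number, and the bar and whiskers are the mean and SD of 4 libraries. Snora73b lies higher in every SP28wk library than in every SP12wk library, Rn7sk lower in every SP12wk library than in every LP library, and the other members overlap between groups.

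Between SP12wk and SP28wk, Snora73b rose 7.54-fold, a log2 fold change of 2.91 (SE 0.51, edgeR quasi-likelihood test, adjusted p = 3.5e-05), and Snora73a rose 7.66-fold (2.94, SE 0.52, adjusted p = 3.5e-05). They were 2 of the 22 members tested, or 1 of 13 families, against 7 of all 5086 genes tested (0.138%). The mean level of Snora73b was 300.5 ± 126 CPM after 12 weeks and 1990.1 ± 1170.2 CPM after 28 weeks (SD, n = 4). The edgeR p was set by a spread shared over genes, whereas this SD is that of the 4 libraries themselves. Over these CPM values the exact two-sided permutation test gave p = 0.0286, the smallest value that 4 against 4 libraries allow. Groups that did not overlap in this direction were found for 1.85% of all genes tested.

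The call for U17 held in every fit that left out 1 library, with adjusted p from 8.1e-09 to 0.0106. It did not hold with counts added over all transcripts of each gene, where Snora73b was at 2.77 (SE 0.74, adjusted p = 0.673). Both U17 genes have 1 transcript row, so their own counts were the same in that fit. The unadjusted edgeR p of Snora73b was 9.2e-09 in the main fit and 0.0019 in that fit. The call thus depended on the other genes, which enter the scaling and the estimated spread. Depth and tissue markers differed between these groups. The SP28wk libraries with the most U17 reads, replicates 3 and 4, had totals of 35007 and 57585 reads, and the part of depth in the U17 result was not tested. The summed CPM of the 9 kidney markers ranged over 1976 to 2534 after 12 weeks and 1399.7 to 1818 after 28 weeks, and the part of this shift in the U17 result was not tested. Relative to U3 in the same library, the Snora73b reads were 0.048 to 0.47 of the Snord3b4 reads in SP12wk and 0.27 to 1.67 in SP28wk, ranges that overlapped.

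The same libraries gave lower and higher U17 values in the other comparisons, without a call. Against LP, Snora73a was at a log2 fold change of -1.51 in SP12wk (SE 0.53, edgeR adjusted p = 0.577) and Snora73b at -1.37 (SE 0.52, adjusted p = 0.577), which became -0.90 and -0.77 without LP replicate 4, the highest LP library. In SP28wk against LP the values were 1.54 for Snora73b (SE 0.46, adjusted p = 0.135) and 1.42 for Snora73a (SE 0.46, adjusted p = 0.239). Without LP replicate 4 the SP28wk differences passed the threshold for both, with adjusted p of 0.00639 and 0.0117, and without SP28wk replicate 1 Snora73b passed with 0.0346. The 3 comparisons of experiment 1 share their libraries, so their values for U17 are not separate observations.

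The spliceosomal RNAs were led by U2 and U1. In experiment 1 Rnu2-10 (U2) had 287 reads and Rnu1a1 (U1) 199, followed by Rnu1b1 and Rnu1b2 with 97 each, Rnu1b6 with 55, Rnu12 (of the minor spliceosome) with 18, Rnu5g with 7 and Rnu11 with 5. The reads of Rnu2-10 were 16, 28, 12 and 35 in LP, 33, 13, 6 and 21 in SP12wk, and 25, 26, 25 and 47 in SP28wk. Those of Rnu1a1 were 18, 9, 6 and 17 in LP, 32, 9, 5 and 16 in SP12wk, and 15, 14, 28 and 30 in SP28wk. Both overlapped across all groups, and no spliceosomal RNA passed the threshold in experiment 1. Rnu1a1 was at 0.27 (SE 0.49, adjusted p = 0.914) and Rnu1b6 at 0.35 (SE 0.66, adjusted p = 0.914) on the log2 scale in SP12wk against LP, and both turned below 0 without SP12wk replicate 1, to -0.32 and -1.23. Rnu12 was at 2.60 in SP28wk against SP12wk (SE 1.19, adjusted p = 0.738), resting on 11 reads in SP28wk and 1 in SP12wk.

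Besides Bc1 and Gm32262, described below, the remaining abundant RNAs of experiment 1 were 7SK and 7SL RNA, products of RNA polymerase III. Rn7sk (7SK RNA) had 127 reads: 11, 12, 7 and 14 in LP, 8, 3, 1 and 8 in SP12wk, and 4, 7, 9 and 43 in SP28wk. Every SP12wk library, at 50.2 to 327 CPM, was below every LP library, at 388 to 673 CPM, an order found in 1.55% of all genes tested. The log2 fold change of Rn7sk was -1.15 (SE 0.55), with an edgeR adjusted p of 0.622. In SP28wk its level ran from 158 to 747 CPM and spanned both other groups, and its log2 fold change against SP12wk was 1.11 (SE 0.54, adjusted p = 0.778). Replicate 4 held 43 of the SP28wk reads, and without it this value was 0.27 (SE 0.64, adjusted p = 0.970), while without SP12wk replicate 3 it was 0.71. Rn7s1 and Rn7s2 (7SL RNA) had the same 83 reads, and their log2 fold changes were between -0.38 and 0.12 in the 3 comparisons; that in SP28wk against LP was -0.26 (SE 0.54, adjusted p = 0.955).

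Among the smaller sets, Rny1 and Rny3, the Y RNAs bound by the Ro protein, had 47 and 2 reads in experiment 1. Rpph1, the RNA of RNase P, had 20 reads, of which LP held 1, SP12wk 6 and SP28wk 13. It stood at a log2 fold change of 2.16 in SP12wk (SE 1.28, edgeR adjusted p = 0.669) and 2.76 in SP28wk against LP (SE 1.15, adjusted p = 0.502), both set against a single LP read. Rmrp had 3 reads. Malat1, an abundant nuclear long noncoding RNA in many tissues, had only 19 reads here and was at -1.28 in SP28wk against SP12wk (SE 0.96, adjusted p = 0.980) and -1.12 against LP (SE 0.99, adjusted p = 0.853). Snord118 was at -1.02 in SP28wk against SP12wk (SE 1.11, adjusted p = 0.980) and at -0.71 against LP (SE 1.15, adjusted p = 0.914). Scarna17, which belongs to the Cajal body RNAs that guide modification of spliceosomal RNAs, and Snhg14 had 2 reads each, and Scarna13, Snhg11 and H19 had 1 each.

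Counted over the tested members of experiment 1, SP12wk against LP gave 0 calls among 22 members and 1 among 5086 genes (0.0197%), and SP28wk against LP gave 0 among 22 and 11 among 5086 (0.216%). Taking the unadjusted p at 0.05, 4 members (Snora73a, Snora73b, Bc1 and Rn7sk) were lower in SP12wk than in LP and 0 higher, where 2.69% of all genes were lower and 4.56% higher. From SP12wk to SP28wk, 5 members (Snora73a, Snora73b, Bc1, Rn7sk and Rnu12) were higher and 0 lower, where 4.6% of all genes were higher and 1.49% lower. From LP to SP28wk, 3 members (Snora73a, Snora73b and Rpph1) were higher and 0 lower, where 6.61% of all genes were higher and 1.97% lower. In the same order, these members came from 3, 4 and 2 of the 13 families tested. DESeq2 also called 0 members in SP12wk against LP and in SP28wk against LP. The median log2 fold change over the member rows was -0.13 from LP to SP12wk, 0.63 from SP12wk to SP28wk and 0.46 from LP to SP28wk. That of all genes tested was -0.00, 0.16 and 0.18. Copies such as the U3 rows each enter the median of the members, so it is not a median of families. Scaling by library totals alone put the medians of all genes at -0.17, 0.01 and -0.16. Low members passed the filter only through libraries in which they had reads, and 22 of the 45 members did not pass it.

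**Figure D2:**
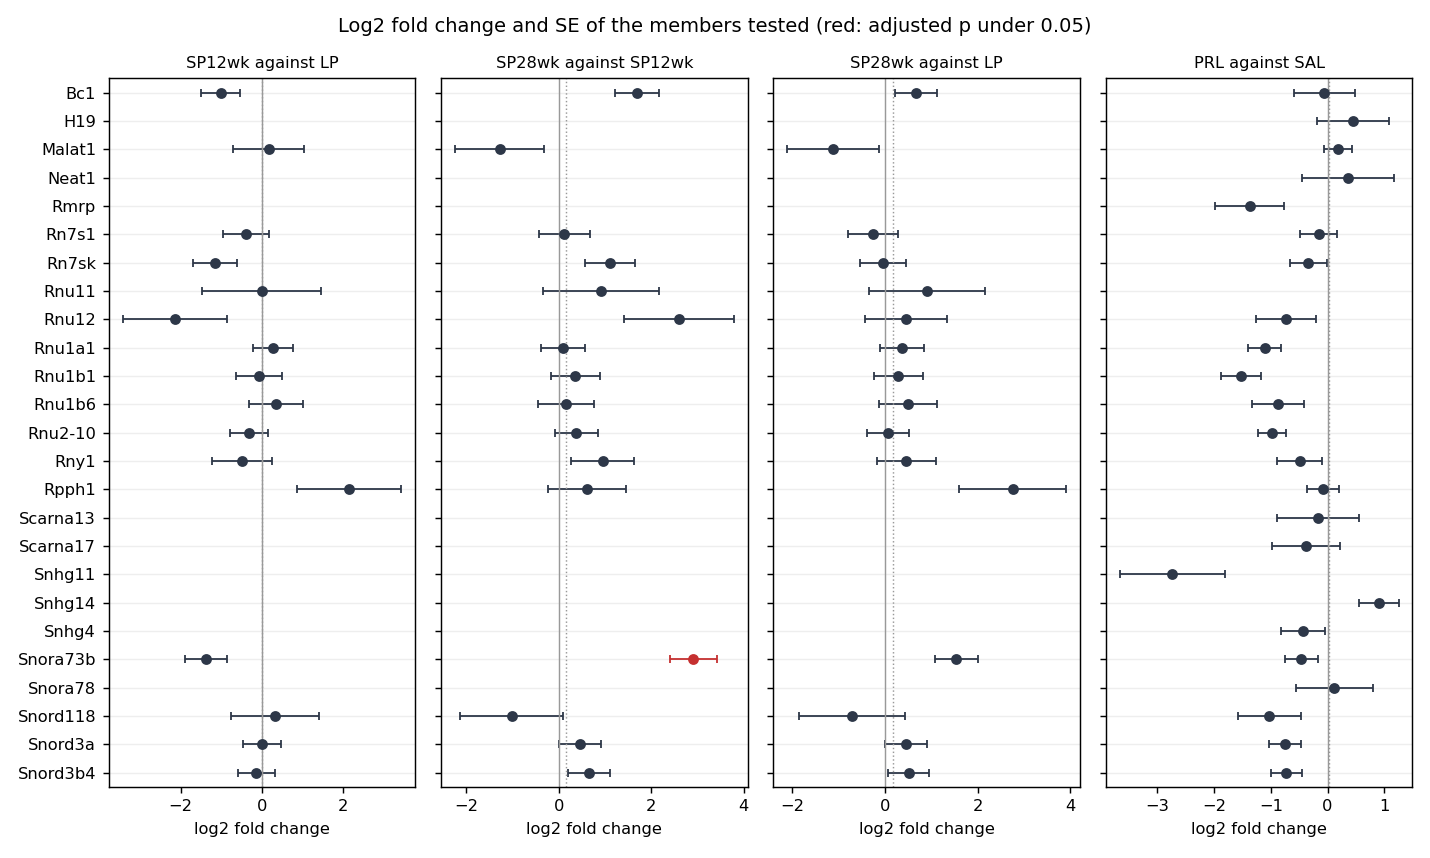
Log2 fold change (horizontal axis) with its SE for the members tested in each of the 4 comparisons (vertical axis: member, with 1 of each set of rows that share reads), from the edgeR fit over all genes. The solid line marks 0 and the dotted line the median of all genes tested. Snora73b in SP28wk against SP12wk, at 2.91, is the only point marked as past the adjusted threshold, and in PRL against SAL the U1 and U2 rows lie between -1.53 and -0.87.

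After PRL, the U1 genes Rnu1b1, Rnu1b2 and Rnu1a1 and the U2 gene Rnu2-10 had the smallest p of all members, with lower mean levels in PRL than in SAL, but none passed the threshold. In experiment 2 Rnu2-10 had 1656 reads, Rnu1a1 410, Rnu1b1 and Rnu1b2 152 each, Rnu1b6 53, Rnu12 41, Rnu5g 15 and Rnu11 4. Rnu2-10 ran from 332 CPM through a median of 401 to 1009.9 CPM in SAL, and from 189 through 255 to 427 CPM in PRL. Rnu1a1 ran from 75.4 through 103 to 269 CPM in SAL and from 39.7 through 58.0 to 119 CPM in PRL. In both RNAs the groups overlapped: SAL replicate 5 was the highest library of all, and PRL replicate 3 lay among the SAL libraries, as did PRL replicate 4 in Rnu1a1. Rnu1b1 ran from 22.8 through 41.2 to 101 CPM in SAL and from 11.3 through 15.7 to 27.6 CPM in PRL. There, 2 PRL libraries lay above the lowest SAL library.

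The log2 fold change in PRL against SAL was -1.53 for Rnu1b1 and Rnu1b2 (SE 0.35, edgeR adjusted p = 0.165), -1.11 for Rnu1a1 (SE 0.29, adjusted p = 0.165) and -0.98 for Rnu2-10 (SE 0.24, adjusted p = 0.165). By the exact permutation test over CPM values, two-sided and with 6 against 6 libraries, p was 0.0108 for Rnu1b1, 0.0195 for Rnu2-10 and 0.0346 for Rnu1a1, not adjusted for the 30 members tested. These RNAs did pass without a filter on low counts, without PRL replicate 3 (Rnu1a1 and Rnu2-10, adjusted p = 0.0283) and without PRL replicate 4 (Rnu1b1 and Rnu1b2, adjusted p = 0.0358), and moved to an adjusted p of up to 0.841 in other fits that left out a library. The adjustment counted every gene name as a test. In experiment 2 the reads of Rnu1a1 and Rnu2-10 stood equal under 6 and 3 other names, so they entered it repeatedly. The part of such copies in the adjusted p-values was not tested. Rnu1b6 was at -0.87 (SE 0.46, adjusted p = 0.999). Relative to U3 in the same library, the Rnu2-10 reads had a median of 1.08 of the Snord3b4 reads in SAL and 0.84 in PRL, with ranges of 0.73 to 1.55 and 0.65 to 1.16.

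**Figure D3:**
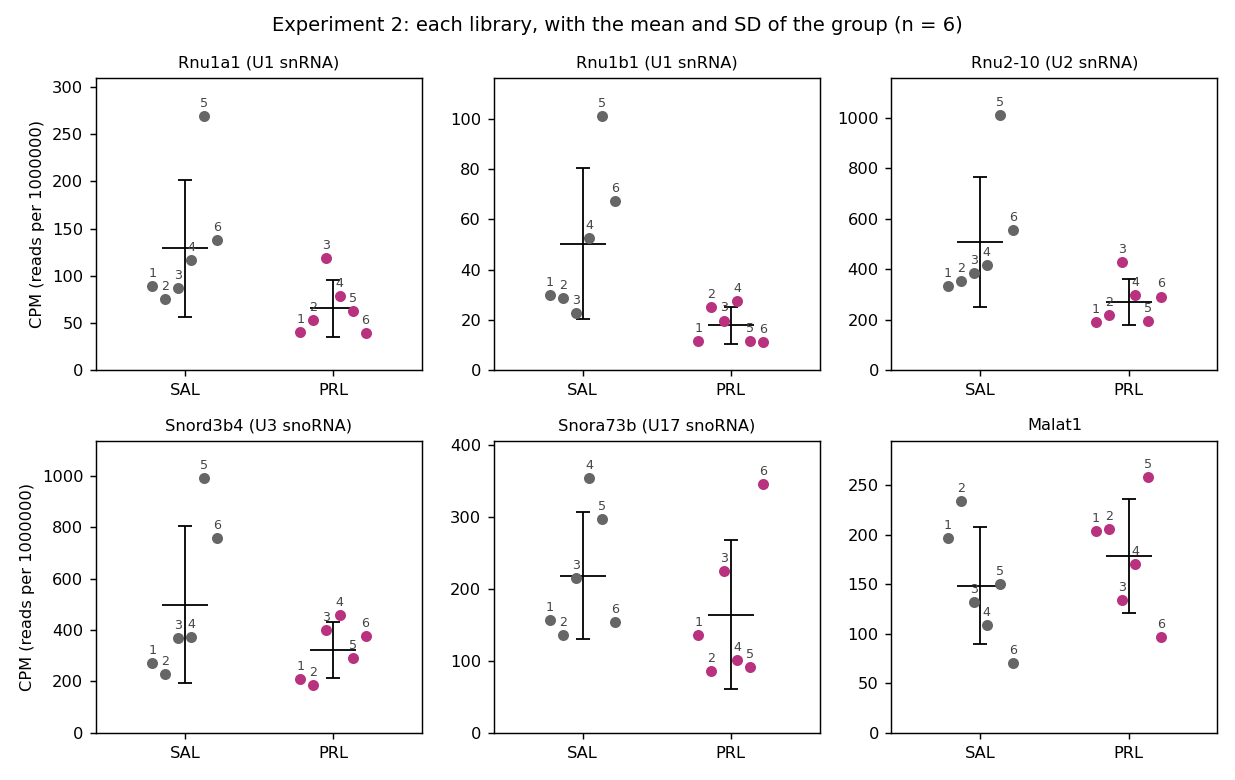
Level of 6 members in each library of experiment 2, in CPM (vertical axis, linear) for SAL and PRL (horizontal axis). Points are libraries with their replicate number, and the bar and whiskers are the mean and SD of 6 libraries. SAL replicate 5 is the highest library for Rnu1a1, Rnu1b1, Rnu2-10 and Snord3b4, and the groups overlap in all 6 members.

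The U3 snoRNA was also at a lower mean in PRL. In experiment 2 Snord3b4 had 1682 reads, Snord3b1, Snord3b2 and Snord3b3 1680 each and Snord3a 1304. Snord3b4 ran from 229 through a median of 372 to 992 CPM in SAL and from 188 through 335 to 459.8 CPM in PRL, so the medians were close while SAL replicates 5 and 6 stood above every PRL library. Its log2 fold change was -0.73 (SE 0.27, edgeR adjusted p = 0.677) and that of Snord3a, at 197 through 278 to 759 CPM in SAL and 137 through 249.5 to 391 CPM in PRL, was -0.74 (SE 0.28, adjusted p = 0.687). The exact permutation test over CPM gave p = 0.266 for Snord3b4.

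U17, the member that differed between SP12wk and SP28wk, overlapped between SAL and PRL. Snora73b ran from 135 through 186 to 354 CPM in SAL and from 85.9 through 118 to 346 CPM in PRL, with a log2 fold change of -0.46 (SE 0.29, edgeR adjusted p = 0.999, 95% interval -1.03 to 0.10). Snora73a ran from 119.7 through 155 to 292 CPM in SAL and from 68.7 through 105 to 281 CPM in PRL. SAL replicate 4 and PRL replicate 6 were the highest of their groups in both rows.

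Of the long noncoding RNAs, Malat1 had 749 reads in experiment 2 and ran from 70.4 through 141 to 234 CPM in SAL and from 96.4 through 187 to 259 CPM in PRL. Its log2 fold change was 0.19 (SE 0.24, edgeR adjusted p = 0.999, 95% interval -0.29 to 0.66). Neat1, the scaffold of paraspeckles, had 15.002 estimated reads. H19 and Meg3, both imprinted, had 29 and 1, and H19 was at 0.45 (SE 0.63, adjusted p = 0.999), which became -0.10 without PRL replicate 2. Terc, the telomerase RNA, had 4 reads, all in SAL.

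The snoRNA host genes were scarce. Snhg14 had 144 reads and was higher in PRL by 0.91 on the log2 scale (SE 0.34, edgeR adjusted p = 0.699), at 5.64 through 18.6 to 54.8 CPM in SAL and 18.4 through 43.0 to 57.5 CPM in PRL, a difference that its shared row gives equally to Snrpn. Snhg11 had 11 reads, 10 in SAL and 1 in PRL, with a log2 fold change of -2.74 (SE 0.92, adjusted p = 0.490). Snhg4 had 69 reads and Snhg8 8.03. At the counts of Snhg11 and Snhg8 a fold change rests on single reads.

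Among the RNA polymerase III products and the small RNAs of experiment 2, Rpph1 had 259 reads and was at -0.08 on the log2 scale (SE 0.28, edgeR adjusted p = 0.999, 95% interval -0.63 to 0.47). Rmrp had 31 reads, 22 in SAL and 9 in PRL (-1.37, SE 0.61, adjusted p = 0.969). Rn7sk had 114 reads, Rn7s1 and Rn7s2 94 and Rny1 84, with log2 fold changes of -0.34, -0.15 and -0.49 and overlapping groups. Scarna17 had 24 reads, Scarna13 16 and Scarna6 4.

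Over all members, PRL against SAL gave 0 calls among 30 tested members of 21 families, as it gave 0 among all 10696 genes tested (0%), by edgeR and by DESeq2 alike. Taking the unadjusted p at 0.05, 11 members were lower in PRL and 1 higher, where 2.34% of all genes passed as lower and 2.54% as higher. The 11 came from 5 families: U1, U2 (Rnu2-10), U3, Rmrp and Snhg11. Snhg11 had reads in 5 SAL libraries and 1 PRL library, where the filter needed 6 of 12. It passed only with its SAL libraries, so its direction was not independent of the filter. Without SAL replicate 5, the library highest in U1, U2 and U3, 6 members were at that level in place of 12. The median log2 fold change was -0.48 over the member rows, copies included, and 0.03 over all genes. The blood markers overlapped between the groups, at 9595 to 18117 CPM in SAL and 8908 to 19490 CPM in PRL, as did the kidney markers, at 1051 to 1845 and 1214 to 2317 CPM. The 6 adipose markers, all in the table, had a summed level of 39.5 through a median of 87.2 to 269 CPM in SAL and 88.6 through 199.7 to 316 CPM in PRL, ranges that overlapped, and the part of this shift in the PRL values was not tested.

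Bc1 is a short cytoplasmic RNA of rodents that is best known from neurons, where it represses translation, and its sequence is related to the ID repeats of rodent genomes. In experiment 1 it had 391 reads: 10, 38, 31 and 36 in LP, 25, 10, 5 and 16 in SP12wk, and 58, 51, 71 and 40 in SP28wk. Its mean CPM was 1430.0 ± 707 for LP, 591 ± 328 for SP12wk and 1783 ± 734 for SP28wk (SD, n = 4). The SP12wk libraries were low, but SP12wk replicate 1, at 1022 CPM, was above LP replicate 1 and SP28wk replicate 4. The log2 fold change was -1.01 in SP12wk against LP (SE 0.48, edgeR adjusted p = 0.622) and 1.69 in SP28wk against SP12wk (SE 0.48, adjusted p = 0.228). Without LP replicate 2 the latter passed, with an adjusted p of 0.00611.

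In experiment 2 Bc1 had 5861 reads, the most of any member, and was uneven between libraries of one group. It ran from 227 through a median of 340 to 6857 CPM in SAL and from 582 through 833 to 3361 CPM in PRL. SAL replicate 6 alone held 2142 of the 2847 SAL reads, and PRL replicates 3 and 6, with 850 and 1027 reads, stood above the other PRL libraries. Over all libraries the log2 fold change in PRL was -0.06 (SE 0.53, edgeR adjusted p = 0.999). Without SAL replicate 6 it was 1.89 (SE 0.35, adjusted p = 0.00156). The row of Gm33937, another gene model, differed from that of Bc1 by at most 33 reads in a library of experiment 2, so these reads cannot be assigned to one of them.

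Gm32262 followed Bc1 from library to library. It had 24 transcript rows in each table, of which 22 in experiment 1 and 23 in experiment 2 were equal to the row used. Its reads were 6, 30, 25 and 33 in LP, 37, 4, 3 and 11 in SP12wk, and 54, 47, 46 and 20 in SP28wk, 316 in all. In experiment 2 it had 4879 reads, from 186 through 267 to 5775 CPM in SAL and from 451 through 625 to 3112 CPM in PRL. SAL replicate 6 was again the highest library, with 1804 reads. For each Gm32262 read there were 0.68 to 2.50 Bc1 reads in the libraries of experiment 1 and 1.06 to 1.64 in those of experiment 2, while the reads of each gene spanned 5 to 71 and 3 to 54 in experiment 1, and 79 to 2142 and 53 to 1804 in experiment 2. These points share library depth, which adds to any likeness of read counts.

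**Figure D4:**
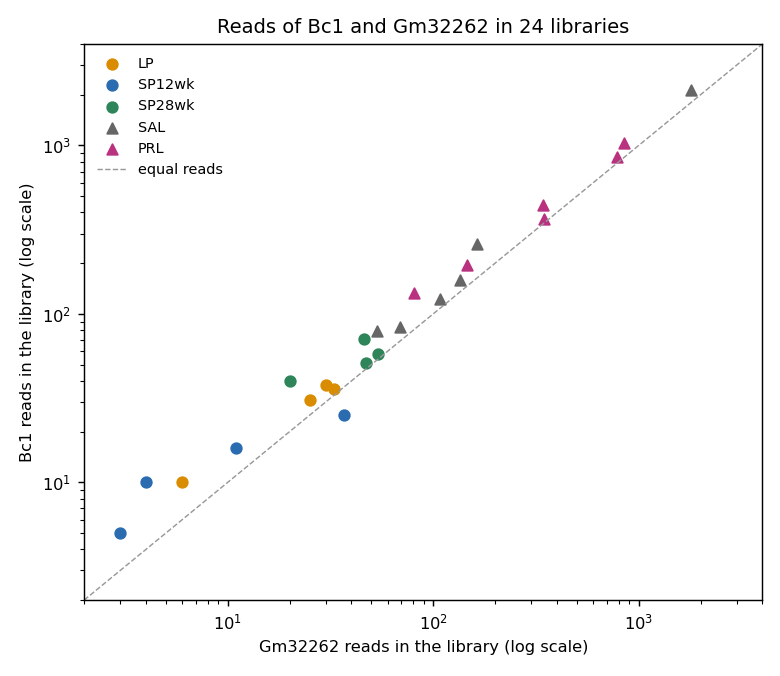
Reads of Bc1 (vertical axis, log scale) against reads of Gm32262 (horizontal axis, log scale) in the 24 libraries, colored by group, with circles for experiment 1 and triangles for experiment 2. The dashed line marks equal reads. The points lie near it, and above it in every library except SP12wk replicate 1. They run from 5 Bc1 and 3 Gm32262 reads in an SP12wk library to 2142 and 1804 in SAL replicate 6.

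The proteins that work with these RNAs were listed in 10 sets, and no gene of any set passed the adjusted threshold in either direction in any of the 4 comparisons. Tested in experiment 1 and experiment 2 were 4 and 8 of 8 snoRNP core proteins, 2 and 7 of 14 snoRNP assembly factors, 2 and 10 of 11 RNase P and MRP proteins, 9 and 10 of 10 signal recognition particle proteins, and 4 and 4 of 6 proteins that bind Y RNA or La. A further 3 and 6 of 7 7SK particle proteins, 15 and 20 of 20 spliceosomal snRNP proteins, 13 and 15 of 15 paraspeckle and speckle proteins, 3 and 8 of 10 nonsense-mediated decay factors, and 2 and 6 of 11 imprinted neighbors were tested. The smallest p among them belonged to Rpp21, a protein of RNase P, in SP12wk against LP, with a log2 fold change of 4.81 (SE 1.42, edgeR adjusted p = 0.276).

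For the snoRNP core proteins, which hold the guide RNAs and carry the modifying enzymes, the median log2 fold change was 0.79, 0.06 and 0.24 in the comparisons of experiment 1, in the same order, beside -0.00, 0.16 and 0.18 for all genes. For the spliceosomal snRNP proteins it was 1.00, -0.33 and 0.83, with 4, 0 and 3 of 15 higher and 0 lower where the unadjusted p was taken at 0.05, beside 4.56%, 4.6% and 6.61% of all genes higher at that level. In PRL against SAL the medians were 0.05 for the core proteins and -0.01 for the snRNP proteins, beside 0.03 for all genes, while 3 of 10 signal recognition particle proteins, beside 2.54% of all genes, were higher at an unadjusted p under 0.05, led by Srp54b at 0.69 (SE 0.29, edgeR adjusted p = 0.891). None of these differences held after adjustment. Rows that share reads were looked for only for the members, so proteins of a set need not be separate measurements.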

How the data were processed

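Kidney RNA was extracted on silica columns, made into barcoded nanopore cDNA libraries and sequenced, with the 12 libraries of each experiment run together. The study names Guppy for base calling, Porechop and Filtlong for trimming and filtering, and Minimap2 for mapping to the mouse genome, so hamster reads carry the names of mouse transcripts; the submitters' processing notes also list Salmon, with no role. The authors deposited, for each experiment, estimated counts per transcript, nearly all whole numbers. The labels give polyA RNA as the molecule, and most snoRNAs, spliceosomal RNAs and polymerase III products lack a poly(A) tail and are short, so their reads may stand for an unknown share of the RNA present. No sequences, coordinates or host gene annotation were used here.

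The members and all lists were chosen with earlier results of these data known. For each gene the transcript row of highest total was kept, counts were rounded, and genes with at least 1 read in at least 4 of 12 libraries (experiment 1) or 6 of 12 (experiment 2) were tested in 1 model per experiment by edgeR 4.0.16 (R 4.3.3; TMM scaling, quasi-likelihood test) with Benjamini-Hochberg adjustment over all genes and a threshold of 0.05. CPM is reads per 1000000 of the library total of these rows. Intervals of log2 fold changes are the estimate ± 1.96 SE. Permutation tests were exact and two-sided. The code was tested on simulated counts with a chosen spread. In SP12wk against LP, 0% of 2-fold and 15% of 4-fold changes passed the threshold. In PRL against SAL these were 9% and 60%. The rates need not hold for the real spread, but an absent call is not evidence of no change. Every member is named with its reads. For the 12 members with most reads in each experiment and for Gm32262, more values are given. These are library values in experiment 1 and mostly the lowest, median and highest value of each group in experiment 2. Up to 3 members in each direction with the smallest p in each comparison are given with their statistics. Others were added after their values were seen. Alternatives were DESeq2 1.42.0, counts added over all transcripts, no filter, a filter of 8 of 12 or 12 of 12 libraries, library totals without TMM, a replicate block and leaving out each library. All 24 libraries were used. With totals of 15687 to 57585 reads in experiment 1, members of few reads are measured with large counting error.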

Additional observations from a re-analysis of the deposited data

Results flagged for a closer look

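In 60 groups of libraries, made from the members with most reads and Gm32262, the highest or lowest library was tested by its gap. The gap was taken to the others of its group, and 6 stood apart. For separate groups of normally spread values, chance gives about 1 in 20. The groups were not separate, because copies such as the U3 rows share reads, so that rate does not apply directly. Bc1 was lowest in SP28wk replicate 4, at 694.6 CPM, while the other 3 libraries held 2028 to 2292 CPM. Gm32262 was highest in SP12wk replicate 1, at 1512 CPM against 151 to 311 CPM. In SAL, replicate 6 stood apart in Bc1, at 6857 CPM against 227 to 799 CPM, and in Gm32262, at 5775 CPM against 186 to 499 CPM. In SAL replicate 5, Rnu2-10 was at 1009.9 CPM, with the others at 332 to 554 CPM, and Rnu1a1 at 269 CPM, with the others at 75.4 to 138 CPM.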

How the results depend on the processing

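Of 747 values of 43 results for named members under the alternatives, 710 kept their direction and side of the threshold, 16 came to pass it, 2 (Snora73a and Snora73b with counts added over all transcripts) no longer did, and 19 changed sign. Of the sign changes, those of Bc1 in PRL against SAL (-0.06) include values past the threshold, 0.87 with a replicate block (adjusted p = 0.0269) and 1.89 without SAL replicate 6 (adjusted p = 0.00156); the others were 0.045 with library totals only and 0.082, 0.10, 0.048 and 0.10 without PRL replicates 1, 2, 4 and 5 (range without 1 library -0.43 to 1.89). Rnu1b6 in SP12wk against LP was -0.05 without LP replicate 2 and -1.23 without SP12wk replicate 1 (range over these fits -1.23 to 0.87), and Rnu1a1 was -0.32 without the latter (range -0.32 to 0.58). In SP28wk against LP, Snord118 was 2.57 without LP replicate 2 (range -1.63 to 2.57) and Rn7s1 was 0.054 without LP replicate 4 (range -0.54 to 0.054). Rn7s1 in SP28wk against SP12wk was -0.040 with DESeq2, -0.043 with library totals only and -0.045 without SP28wk replicate 3 (range -0.045 to 0.22). H19 in PRL against SAL was -0.10 without PRL replicate 2 (range -0.10 to 0.71), and Rpph1 was 0.13 without SAL replicate 5, 0.042 without PRL replicate 2 and 0.036 without PRL replicate 5 (range -0.24 to 0.13).

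The count of genes called in SP12wk against LP, 1, was 0 with counts added, without a filter, with the stricter filter, with DESeq2, with library totals only and with the block. In SP28wk against SP12wk the 7 genes became 0 with counts added, 2 with the stricter filter and 2 with DESeq2. The 2 members became 0 with counts added, although each has 1 transcript row and kept its own counts. In SP28wk against LP the 11 genes became 0, 5 and 2 under the same settings. In PRL against SAL, 0 genes became 1 with counts added and 92 without a filter, where 4 members, the U1 genes Rnu1a1, Rnu1b1 and Rnu1b2 with Rnu2-10, were called. Leaving out 1 library gave 0 to 9, 2 to 11, 8 to 56 and 0 to 44 genes and 0, 2 to 3, 0 to 2 and 0 to 2 members in the 4 comparisons in that order. The largest counts came without SP12wk replicate 1, LP replicate 2, LP replicate 4 (30 genes without SP28wk replicate 1) and PRL replicate 4 (27 without SAL replicate 6 and 26 without PRL replicate 3). With counts added over all transcripts, the members' share of the library total was 1.27% in LP, 0.782% in SP12wk and 1.87% in SP28wk. It was 1.42% in SAL and 1.52% in PRL. These shares are larger since the 24 rows of Gm32262 are then counted together. The cause of the other shifts was not tested.

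The replicate numbers did not pair the samples: same-numbered libraries of different groups had correlations of their deviations from the group means of -0.14 to 0.24 in experiment 1 and -0.28 to 0.34 in experiment 2. A replicate block gave 0, 6, 12 and 52 genes and 0, 2, 0 and 5 members in the 4 comparisons; the 5 in PRL against SAL were Bc1, at 0.87, and, at lower levels, Rnu1a1, Rnu1b1, Rnu1b2 and Rnu2-10. In experiment 1, 23 of 45 members had fewer than 10 reads in all.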
